A study of Saccharomyces cerevisiae with 6 samples.

Results

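The data described here are 4 of the 6 GeneChip Yeast Genome 2.0 arrays of a study of cadmium sulphide quantum dots (CdS QDs) in baker's yeast, chosen by their sample titles: 2 arrays of cells given 0.27 mg/L nystatin plus 100 mg/L CdS QDs, and 2 arrays of cells given 0.27 mg/L nystatin alone. The other 2 arrays are of untreated cells, and their values stand last wherever they help to read a level. All cells were the haploid strain BY4742 of mating type alpha, with deletions at his3, leu2, lys2 and ura3, and controls and treated cells carried these alike. They were grown for 24 h and then treated for 24 h in rich glucose medium. By the study's methods the 2 arrays of a condition carry 2 aliquots of RNA extract, so p-values measure only the spread between such aliquots, which may be technical, and a condition stands for a small number of cultures. The labels' nystatin dose differs slightly from the one in the study's methods. Comparing these groups asks what CdS QDs added to the response of cells that already had nystatin.

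CdS QDs are semiconductor nanocrystals built from cadmium and sulphide, and the ones used here were uncoated. Nystatin, a polyene drug against fungi, targets the sterol ergosterol and makes the plasma membrane leaky. The study used it to ease the passage of the particles into cells. In yeast, iron uptake is switched on by the transcription factors Aft1 and Aft2 when iron-sulphur clusters run short, sulphate assimilation and the synthesis of glutathione precursors by Met4 and its partners, and the phosphate starvation genes by Pho4. Cadmium ions are known to bind thiols and glutathione, and yeast sends their conjugates to the vacuole. Nothing on these arrays measured the particles, cadmium or metal content of the cells.

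The arrays hold 10928 probe sets, of which 5498 were paired with 5449 genes of S. cerevisiae. The other probe sets are of the fission yeast S. pombe (1747), controls (213) or have no gene listed (3470). Values are log2 RMA values, a log2 scale of probe set brightness on which 1 unit is a 2-fold difference. A probe set was taken as above background where it was brighter than 95% of the S. pombe probe sets of its array, a level that lay between 1.42 and 1.48. By this measure 5442 probe sets were above background on both CdS QDs arrays and 5427 on both nystatin arrays. The arrays of a condition correlated at 0.998 with CdS QDs and 0.999 with nystatin, and their differences had an SD of 0.133 and 0.0954 log2 units. Over 7 control genes the 3' probes exceeded the 5' probes by 1.58 and 1.58 log2 units with CdS QDs, against 1.45 and 1.45 with nystatin and 1.47 and 1.41 in untreated cells. This sign of RNA or labelling quality therefore moved with the CdS QDs, and its part in the results below was not tested.

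Much of the transcriptome differed between nystatin-treated cells with and without CdS QDs, mostly by small amounts. Of the 5498 probe sets tested, 2017 rose (36.7%) and 2106 fell (38.3%) at a Benjamini-Hochberg adjusted p under 0.05, and 2327 of these changed by less than 0.5 log2 units. In this text "rose", "fell" and "changed" stand for that call. At least 2-fold changes with an unadjusted p under 0.01 were seen upward in 268 probe sets (4.87%) and downward in 256 (4.66%), which stand for 262 and 255 genes by the brightest probe set of each gene. The increases include YBR182C-A and YGL188C-A, which lay below background on both nystatin arrays and were at least 1.29-fold and at least 1.37-fold higher, bounds set by the background of those arrays. The deleted locus LEU2 gave a bound of 1.59 in the same way, so these 2 rises are uncertain. In all of these changes of at least 2-fold the arrays of the 2 groups did not overlap. That was also true of 87.4% of all probe sets tested, so a lack of overlap sets no gene below apart. Decreases reached further than increases, with 21 probe sets that fell by 3 log2 units or more and 7 that rose by as much, and with 48 and 39 at 2 log2 units. Over all genes, 36.4% rose and 38.5% fell, and the median log2 fold change was −0.01. The counts of each gene list below are to be read against these shares. The log2 fold changes had an SD of 0.675. For nystatin against untreated cells, a comparison that uses the same nystatin arrays, the SD was 0.186.

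**Figure D1:**
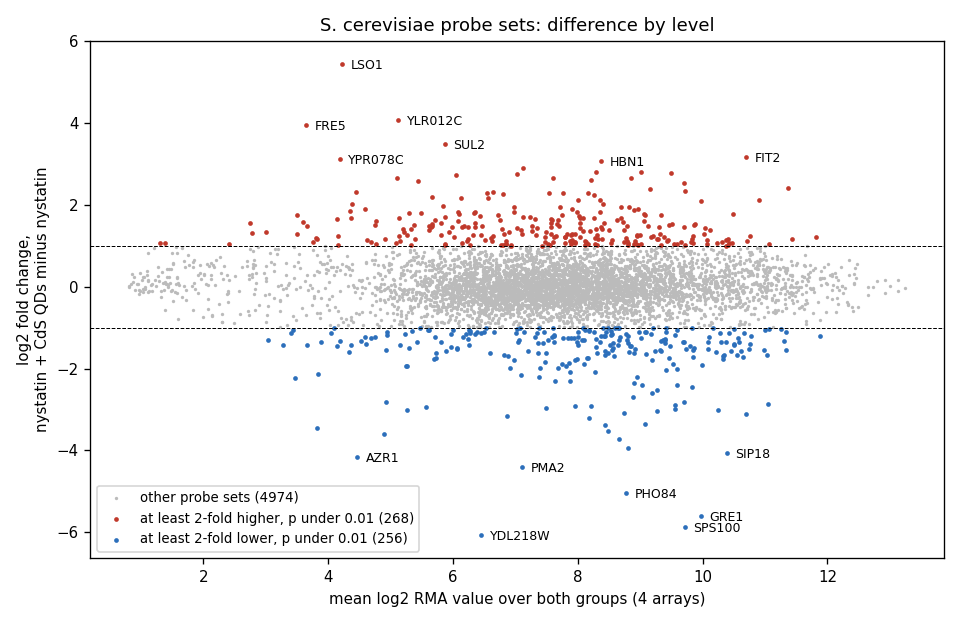
Log2 fold change of nystatin + CdS QDs minus nystatin (vertical axis) against the mean log2 RMA value of the 4 arrays (horizontal axis) for the 5498 S. cerevisiae probe sets; dashed lines mark a 2-fold change and the 7 largest changes in each direction are named. The 268 increases and 256 decreases of at least 2-fold occur at all levels, with 106, 80 and 82 increases and 70, 68 and 118 decreases in equal low, middle and high classes of level, and the decreases run down to −6.06.

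The largest increases included genes of iron scarcity, sulphate uptake, mating and bud growth. LSO1, a short gene induced when iron is low, had log2 RMA values of 7.02 and 6.86 on the CdS QDs arrays, against 1.67 and 1.35 on the nystatin arrays and 1.31 and 1.22 in untreated cells. Of the nystatin arrays only 1 of 2 was above background for this gene, as was neither untreated one, so its rise (adjusted p = 9.23e-08) is given without a fold, and its place among the largest changes rests on a level near background. FRE5, a gene of the ferric reductase family that responds to low iron, had 5.66 and 5.57 with CdS QDs against 1.55 and 1.81 with nystatin (log2 fold change 3.94, standard error 0.087). Background was 1.42 and 1.48 on those nystatin arrays, so the size and place of this change, too, rest on a level near background. The sulphate permease gene SUL2 had 7.62 and 7.60 with CdS QDs against 4.14 and 4.11 with nystatin (log2 fold change 3.49, standard error 0.042, adjusted p = 3.79e-08). For these 3 genes the nystatin arrays lay close to the untreated ones, and no CdS QDs array came near them. YLR012C and YPR078C, open reading frames named only by their locus tags, rose by 4.07 and 3.13. YLR012C had 7.25 and 7.06 with CdS QDs, 3.27 and 2.91 with nystatin, and 3.98 and 3.94 in untreated cells, and its groups did not overlap. Further down this ranking came the nitroreductase-like gene HBN1 (3.06), the alpha-factor gene MF(ALPHA)2 (2.90), the Cdc42 effector gene GIC2 (2.80), SRD1, a gene linked to the processing of ribosomal RNA (2.74), PGU1, which encodes a secreted pectin-degrading enzyme (2.72), and the ammonium transporter gene AMF1 (2.66). The other 4 of the 15 largest increases were the iron uptake genes FIT2, SIT1, FET3 and ARN2.

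The largest decreases included hydrophilin, spore wall, proton pump, drug transport and phosphate genes. YDL218W, of unknown function, had 3.34 and 3.51 with CdS QDs, against 9.55 and 9.42 with nystatin and 7.65 and 7.89 in untreated cells. It fell by 6.06 log2 units (standard error 0.096, adjusted p = 5.22e-08), and nystatin alone stood 1.71 above untreated cells. SPS100, a gene of spore wall maturation, had 6.64 and 6.94 with CdS QDs against 12.66 and 12.63 with nystatin, a fold of 58.1 downward. GRE1, a stress-induced hydrophilin gene, had 7.17 and 7.17 with CdS QDs against 12.77 and 12.78 with nystatin (log2 fold change −5.61, standard error 0.042, adjusted p = 4.07e-09). The adjusted p of GRE1 was the smallest among the genes named here. PMA2, the minor gene of the plasma membrane proton pump, had 4.82 and 4.98 with CdS QDs against 9.36 and 9.26 with nystatin (log2 fold change −4.41, standard error 0.065). AZR1, a transporter gene of azole resistance, had 2.16 and 2.61 with CdS QDs against 6.60 and 6.48 with nystatin (log2 fold change −4.15, standard error 0.13). In these genes, too, the CdS QDs arrays stood apart from both nystatin arrays and both untreated ones. The remaining 10 of the 15 were the phosphate genes PHO84, SPL2, PHO5 and GIT1, the hydrophilin gene SIP18, the minor pyruvate decarboxylase gene PDC6 (−3.36), SHH3, a relative of the succinate dehydrogenase gene SDH3 (−3.37), FMP48, a gene of a mitochondrial protein (−3.52), and 2 genes known by locus tags, YMR175W-A (−3.45) and YKL107W (−3.22). Counting YDL218W, YLR012C and YPR078C, 5 of these 30 genes had no other name, against 9.16% of all genes measured.

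**Figure D2:**
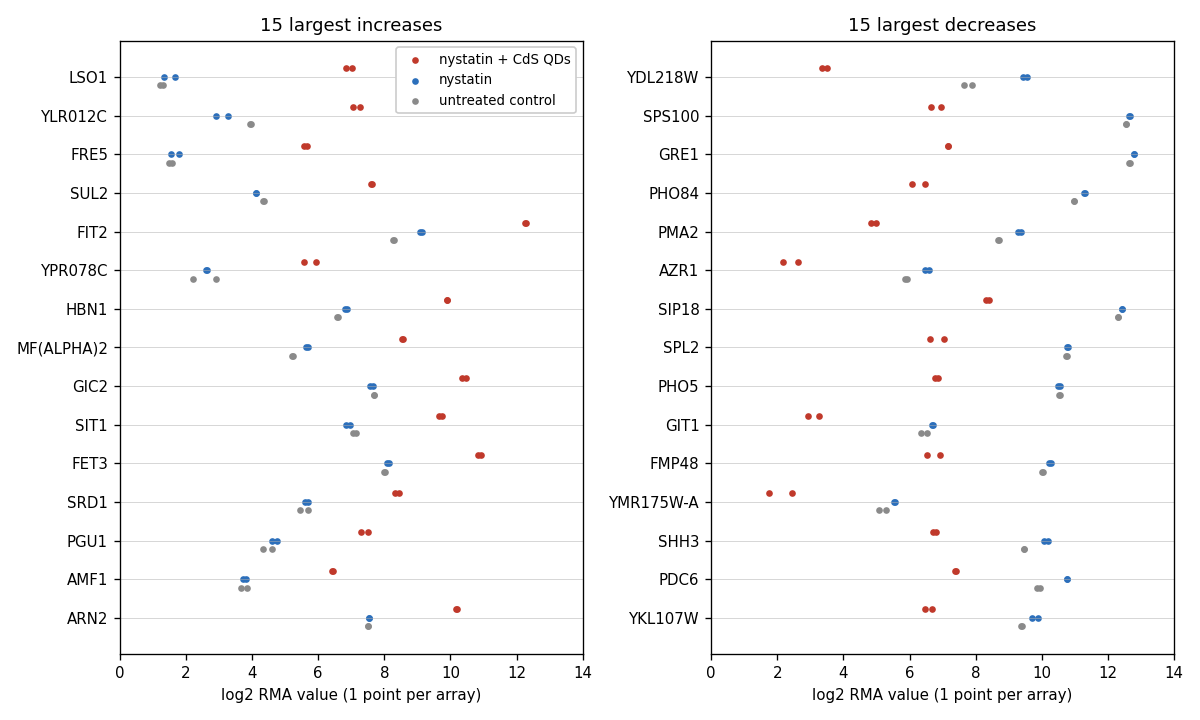
Log2 RMA values (horizontal axis, 1 point per array) of the 15 genes with the largest increases and the 15 with the largest decreases with nystatin + CdS QDs against nystatin, with the untreated control as the bottom point row of each gene. For LSO1 the CdS QDs arrays are at 7.02 and 6.86 and the nystatin arrays at 1.67 and 1.35; for GRE1 they are at 7.17 and 7.17, and 12.77 and 12.78.

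Genes of iron uptake rose together. Yeast takes up iron bound to siderophores, chelators made by other microbes, through the transporters Arn1, Arn2, Sit1 and Enb1, with the mannoproteins Fit1, Fit2 and Fit3 holding it in the cell wall. All 7 of these genes rose, 6 of them at least 2-fold, and their median was 2.40. FIT2 had 12.29 and 12.27 with CdS QDs, 9.09 and 9.15 with nystatin, and 8.26 and 8.30 in untreated cells (log2 fold change 3.16, standard error 0.045, adjusted p = 4.31e-08). SIT1, the ferrioxamine B transporter gene, had 9.66 and 9.73 with CdS QDs against 6.96 and 6.84 with nystatin (2.79, standard error 0.062). ENB1, the enterobactin transporter gene, had 9.31 and 9.30 with CdS QDs against 7.03 and 7.04 with nystatin (2.27, standard error 0.045, adjusted p = 9.23e-08). The smallest change was that of FIT1, which had 8.73 and 8.66 with CdS QDs against 8.18 and 8.16 with nystatin (0.52, standard error 0.048). ARN2 (2.64), FIT3 (2.40) and ARN1 (1.93) lay between these, and in none of the 7 did the groups overlap, as in 87.4% of all probe sets. Nystatin alone had already raised FIT2 (0.83 against untreated cells) and FIT3 (0.40), whereas ENB1 was at −0.08.

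Iron is also taken up as free ions, after ferric reductases of the FRE family have reduced it, through the oxidase Fet3 and the permease Ftr1. Of 17 genes of this and of the low-affinity route, 14 rose, 1 fell and 2 did not pass, with a median of 0.91 and 7 increases of at least 2-fold. FET3 had 10.92 and 10.85 with CdS QDs against 8.14 and 8.09 with nystatin (log2 fold change 2.77, standard error 0.048, adjusted p = 6.96e-08). FTR1 averaged 7.95 ± 0.11 with CdS QDs and 6.01 ± 0.021 with nystatin (SD, n = 2 each), a rise of 1.93. CCC2 and ATX1, which bring copper to Fet3, rose by 1.74 and 1.25. The member that fell was CCC1, which stores iron in the vacuole and is known to be repressed when iron is low: it averaged 7.96 ± 0.049 with CdS QDs and 9.12 ± 0.035 with nystatin (SD, n = 2 each). It fell by 1.16 log2 units (limma, adjusted p = 1.42e-06), and the groups did not overlap. The reductase gene FRE8 (−0.12) did not pass, except without nystatin + CdS QDs replicate 1 (adjusted p = 0.0391) and after repeated quantile normalization, and FRE7 lay below background on all 4 arrays. In both of these cases 2 members rather than 1 fell.

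Further targets of Aft1 and Aft2 and their regulators rose in 13 of 16 cases, with 1 that fell, 2 that did not pass and a median of 0.86. TIS11, also called CTH2, whose protein triggers decay of messenger RNAs of iron-using enzymes, had 10.85 and 10.92 with CdS QDs against 8.58 and 8.50 with nystatin (log2 fold change 2.34, standard error 0.050). HMX1, the haem oxygenase gene, had 8.86 and 8.94 against 6.61 and 6.62 (2.29, standard error 0.046), and stood below untreated cells (7.14 and 7.16) with nystatin alone. ISU2, a scaffold gene of iron-sulphur cluster assembly, rose by 1.90 and its paralog ISU1 did not pass (0.00). AFT1 itself rose by 1.22 and AFT2 by 0.25, and MRS4, which carries iron into mitochondria, by 1.36. The member that fell, GRX4, encodes a glutaredoxin that holds Aft1 inactive when iron is plentiful, and it had 7.28 and 7.35 with CdS QDs against 8.68 and 8.64 with nystatin (−1.35, standard error 0.048, adjusted p = 8.51e-07). Its partner gene GRX3 had a log2 fold change of 0.15, whose call was lost without nystatin replicate 1 or 2.

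Genes of proteins that carry iron-sulphur clusters, haem or other iron centres mostly went the other way. Of 21 genes, 14 fell, 5 rose and 2 did not pass, with a median of −0.64. The cytosolic catalase gene CTT1 had 8.68 and 8.82 with CdS QDs against 11.77 and 11.74 with nystatin (log2 fold change −3.01, standard error 0.055, adjusted p = 8.45e-08). The peroxisomal catalase gene CTA1 fell by 1.38. ERG25, a sterol oxidase gene with a di-iron centre, fell by 1.91 and GLT1, the glutamate synthase gene, fell by 1.37. The 5 that rose were DRE2, a gene of cluster assembly in the cytosol (1.69), LEU1, CYC7, MET5 and CCP1. Genes of cluster assembly as a whole were mixed, with 10 that rose, 7 that fell and 3 that did not pass of 20. Besides ISU2, the chaperone gene SSQ1 (0.96) and the frataxin gene YFH1 (0.85) rose, while NAR1 and ISA1 fell by 0.74 and by 0.72. Of 8 haem synthesis genes, HEM13 and HEM12 rose (0.60 and 0.45), HEM15, HEM14 and HEM4 fell, led by the ferrochelatase gene HEM15 (−0.85), and 3 did not pass. BIO2, the biotin synthase gene with an iron-sulphur cluster, had 5.98 and 5.95 with CdS QDs against 6.80 and 6.77 with nystatin (−0.82), whereas VHT1, the biotin importer gene, had a log2 fold change of 0.28 and an adjusted p = 0.00676. Of the 6 genes of biotin synthesis and uptake 1 rose, 3 fell (BIO2, BIO4 and BPL1) and 2 did not pass.

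**Figure D3:**
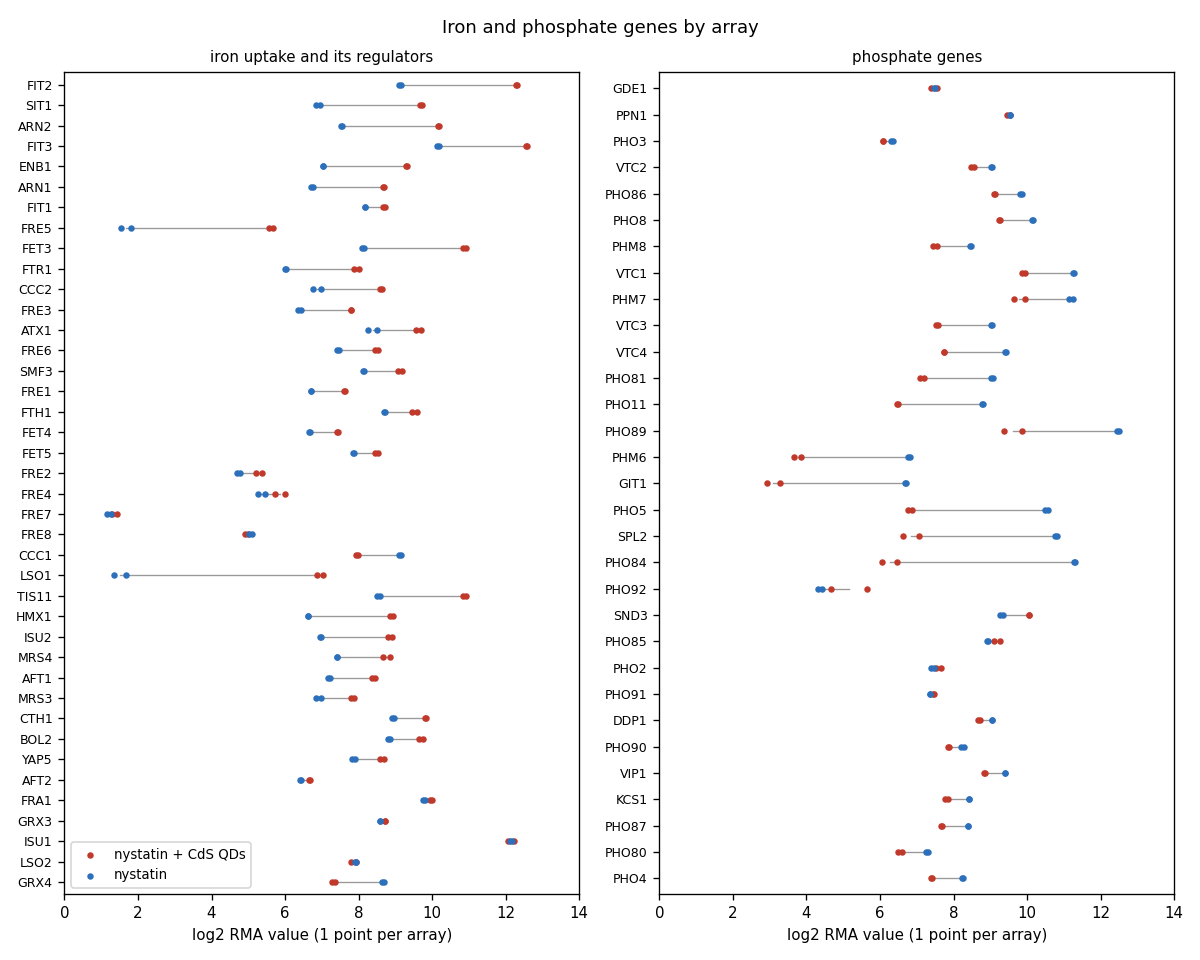
Log2 RMA values (horizontal axis, 1 point per array; a grey line joins the group means) of iron uptake genes and their regulators, and of phosphate genes, with nystatin + CdS QDs and with nystatin. In the iron panel most genes lie to the right with CdS QDs, with CCC1 and GRX4 among the exceptions; in the phosphate panel most lie to the left, PHO84 at 6.46 and 6.06 against 11.30 and 11.28.

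Phosphate starvation genes fell together. Pho4 switches on these genes, which encode high-affinity phosphate transporters, secreted phosphatases and the polymerase that stores phosphate as polyphosphate. Of 19 measured, 16 fell, 12 of them at least 2-fold, none rose and 3 did not pass, with a median log2 fold change of −1.48. PHO84, the high-affinity phosphate transporter gene, had 6.46 and 6.06 with CdS QDs, 11.30 and 11.28 with nystatin, and 10.97 and 10.98 in untreated cells (log2 fold change −5.03, standard error 0.12, adjusted p = 1.71e-07). PHO5, the secreted acid phosphatase gene, had 6.76 and 6.86 with CdS QDs against 10.48 and 10.56 with nystatin (−3.71, standard error 0.053, adjusted p = 4.31e-08). SPL2, a target of Pho4 that restrains low-affinity phosphate uptake, had 6.62 and 7.05 against 10.80 and 10.76 (−3.95, standard error 0.12). GIT1, which takes up glycerophosphoinositol, had 2.93 and 3.27 with CdS QDs against 6.71 and 6.67 with nystatin (−3.59). PHM6, of unknown function, had 3.67 and 3.85 against 6.75 and 6.81 (−3.02). For all 5 the CdS QDs arrays lay far below the nystatin ones, without overlap, and 4 of the 5, PHM6 being the exception, did not pass the test for nystatin against untreated cells. The 3 genes that did not pass were PHO3, a phosphatase gene repressed by thiamine rather than induced by low phosphate (−0.23; adjusted p = 0.00710 without either untreated control array), PPN1 (−0.04) and GDE1 (−0.02).

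Regulators of the phosphate response and the low-affinity transporters changed less. Of 12 genes, 4 rose, 7 fell and 1 did not pass, with a median of −0.37 and no change of 2-fold. PHO4 itself had 7.40 and 7.41 with CdS QDs against 8.25 and 8.23 with nystatin (log2 fold change −0.83, standard error 0.043), and PHO80, the cyclin gene that holds Pho4 back, fell by 0.73. The low-affinity transporter genes PHO87 and PHO90 fell by 0.72 and by 0.39. PHO92, linked to the decay of PHO4 messenger RNA, had 5.64 and 4.67 with CdS QDs against 4.41 and 4.30 with nystatin (0.80, standard error 0.27, adjusted p = 0.0297). Its CdS QDs arrays lay almost 1 log2 unit apart, and its call was lost without nystatin replicate 2 (adjusted p = 0.122), without nystatin replicate 1 (adjusted p = 0.0869) and without either untreated control array (adjusted p = 0.0544). The count of 4 that rose, PHO92, SND3, PHO85 and PHO2, was 1 without nystatin replicate 1 and 2 without nystatin replicate 2, and 2 without either untreated control array.

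Sulphate assimilation rose in part. Yeast reduces sulphate to sulphide and builds it into homocysteine, methionine, cysteine and S-adenosylmethionine, and glutathione is made from cysteine. Of 34 genes of this route, 21 rose, 5 fell and 8 did not pass, with a median of 0.30 and 6 increases of at least 2-fold. Beside SUL2, the S-adenosylmethionine synthetase gene SAM1 had 8.78 and 8.57 with CdS QDs against 6.44 and 6.35 with nystatin (log2 fold change 2.28, standard error 0.073), while its paralog SAM2 rose by 0.51. CYS3, which makes cysteine from cystathionine, had 9.78 and 9.82 against 7.87 and 7.83 (1.95, standard error 0.058). MET17, which captures sulphide into homocysteine, had 9.90 and 9.94 against 8.01 and 8.02 (1.90, standard error 0.043, adjusted p = 1.50e-07). MET32, a regulator gene that works with Met4, had 6.78 and 6.74 against 4.79 and 4.37 (2.18, standard error 0.14). In none of these genes did the groups overlap, and MET32 had the widest spread, on the nystatin arrays. The other sulphate permease gene, SUL1, moved against SUL2, with 5.37 and 5.44 with CdS QDs against 6.23 and 6.29 with nystatin (−0.86, standard error 0.052). CBF1, which encodes a DNA-binding partner of Met4, fell by 1.38, and MET4, MET6, SUL1 and STR2 were the other 4 members that fell.

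Genes of glutathione use and vacuolar metal transport moved both ways. Of 17 genes, 9 rose, 6 fell and 2 did not pass. The glutathione transferase genes GTO3 and GTT2 rose by 1.78 and 1.38, whereas GTT1 had 9.38 and 9.46 with CdS QDs against 11.04 and 11.00 with nystatin (log2 fold change −1.60, standard error 0.048). VMR1, a vacuolar transporter gene of metal resistance, had 8.88 and 8.86 with CdS QDs, 7.53 and 7.50 with nystatin, and 6.99 and 6.98 in untreated cells (1.35, standard error 0.041). YCF1, which pumps cadmium-glutathione conjugates into the vacuole, was lower (−0.25), as were its relatives BPT1 (−0.34) and YBT1 (−0.54), and all 3 passed the test. OPT1, a glutathione importer gene, rose by 1.32. The glutathione synthesis genes GSH1 and GSH2 were at 0.12, which passed only with an intensity trend (adjusted p = 0.0450) or without nystatin + CdS QDs replicate 2 (adjusted p = 0.0104), and 0.15, which lost its call without nystatin replicate 1, without nystatin + CdS QDs replicate 2 or without either untreated control array. CUP1-1, a copper metallothionein gene near the top of the array's range, had 13.22 and 13.21 with CdS QDs against 13.08 and 13.04 with nystatin (0.15, adjusted p = 0.0126), and it missed the threshold without nystatin replicate 2 (adjusted p = 0.0735). CRS5, the other metallothionein gene, fell by 0.95. Over 11 genes of copper transport and metallothioneins, 6 rose, 3 fell and 2 did not pass, led by the copper transporter gene CTR3 (1.14), while CTR1 fell by 0.60. Among 12 zinc genes, 4 rose and 6 fell, with ZAP1, the regulator gene of zinc uptake (−0.94), and the importer gene ZRT1 (−0.55) among those that fell. The 4 that rose were MCD4, COT1, IZH2 and ZRC1, with COT1, a vacuolar exporter gene, at 1.07.

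The 4 nitroreductase-like and old yellow enzyme genes all rose, with a median of 2.13. HBN1 had 9.90 and 9.91 with CdS QDs against 6.83 and 6.86 with nystatin (log2 fold change 3.06, standard error 0.043, adjusted p = 4.31e-08). FRM2 had 5.69 and 5.52 against 3.35 and 3.22 (2.32, standard error 0.083), OYE3 had 9.67 and 9.65 against 7.66 and 7.80 (1.93), and OYE2 had 11.22 and 11.16 against 10.34 and 10.37 (0.83). Genes of the defence against peroxides and thiol oxidation showed no common direction, with 10 of 28 that rose, 14 that fell and 4 that did not pass. GPX2, a glutathione peroxidase gene, rose by 1.70. The catalase genes, the peroxiredoxin gene TSA2 (−1.23) and the mitochondrial thioredoxin reductase gene TRR2 (−1.11) fell. Multidrug transport was as mixed, with 12 of 27 genes that rose, 11 that fell and 4 that did not pass. Besides AZR1, the largest changes were in QDR2 (1.44), PDR16 (1.23), PDR12 (1.22) and QDR3 (−1.20). TPO2, a polyamine exporter gene, has 2 probe sets of its own, which gave 0.20 for the brighter one and 1.78 for the other, so its change is uncertain. The 13 polyamine genes held 8 that rose, 4 that fell and 1 that did not pass, and 5 that rose without nystatin replicate 1.

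Chaperones rose modestly, while hydrophilins and other proteins of the stationary phase fell. Of 28 chaperone genes 23 rose, 2 fell and 3 did not pass, with a median of 0.37. The Hsp90 co-chaperone genes CPR6 and AHA1 rose by 1.15 and 0.93, HSP31 by 1.12 and SSA4 by 0.86. The exceptions were SSB2 (−0.21) and SSA3, a stress-induced member of the Hsp70 family, which had 8.11 and 8.02 with CdS QDs against 11.09 and 11.00 with nystatin (log2 fold change −2.98, standard error 0.054, adjusted p = 8.41e-08). Of 24 hydrophilin and stationary phase genes, 16 fell, 9 of them at least 2-fold, 3 rose and 5 did not pass, with a median of −0.42. SIP18, the paralog of GRE1, had 8.31 and 8.41 with CdS QDs against 12.43 and 12.42 with nystatin (−4.07, standard error 0.050, adjusted p = 3.79e-08). SNZ1, of vitamin B6 synthesis in stationary cells, had 8.05 and 8.18 against 11.00 and 11.00 (−2.89), and the aldehyde dehydrogenase gene ALD3 had 8.44 and 8.16 against 10.18 and 10.00 (−1.79). The 3 that rose, GRE3, DDR48 and TMA10, were between 0.22 and 0.29. Of 20 genes of trehalose and glycogen, the reserve carbohydrates, 14 fell, 2 rose and 4 did not pass, with a median of −0.30, led by PIG1 (−1.61), a regulator gene of glycogen synthase. GDB1 and GLG2 were the 2 that rose, and without nystatin replicate 2 only 1 did. Of 34 autophagy genes, 24 fell, 5 rose and 5 did not pass, with a median of −0.47. The 5 that rose, ATG41, ATG3, ATG40, ATG8 and ATG27, reached 0.54 at most. ATG16, ATG14 and ATG5 fell by 1.42, by 1.10 and by 1.00.

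Genes of fatty acid oxidation, the glyoxylate cycle and gluconeogenesis, which glucose represses, fell. Of 34 peroxisomal and fatty acid oxidation genes 28 fell, 11 of them at least 2-fold, 2 rose and 4 did not pass, with a median log2 fold change of −0.84. IDP3, the peroxisomal isocitrate dehydrogenase gene, had 7.22 and 7.26 with CdS QDs, 9.32 and 9.30 with nystatin, and 9.92 and 9.79 in untreated cells (log2 fold change −2.07, standard error 0.056, adjusted p = 3.56e-07). POX1, which opens beta-oxidation, had 7.46 and 7.75 against 9.31 and 9.23 (−1.66, standard error 0.096), and POT1, which closes it, 7.84 and 8.45 against 9.73 and 9.63 (−1.53, standard error 0.18). The fatty acid importer genes PXA2 and PXA1 fell by 1.61 and by 1.51. Both genes that rose, LPX1 and PEX7, were at 0.20 or below, and LPX1 lost its call when any array other than nystatin + CdS QDs replicate 1 was left out, which leaves 1. All 19 genes of the methylcitrate and glyoxylate cycles and gluconeogenesis fell, 9 at least 2-fold, with a median of −0.91. CIT3, the methylcitrate synthase gene, had 7.44 and 7.64 with CdS QDs against 10.25 and 10.21 with nystatin (−2.69, standard error 0.073). PDH1, a methylcitrate dehydratase gene, had 8.55 and 8.62 against 10.58 and 10.61 (−2.01), and ICL1, the isocitrate lyase gene of the glyoxylate cycle, had 9.72 and 9.71 against 11.44 and 11.33 (−1.67). ADH2, the glucose-repressed alcohol dehydrogenase gene, had 8.69 and 9.60 with CdS QDs against 12.30 and 12.19 with nystatin (−3.10, standard error 0.25), with CdS QDs arrays that lay apart and still did not overlap the nystatin ones. These lists had already lain slightly lower with nystatin than in untreated cells, with medians of −0.33 and −0.20.

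Genes of hexose transport and glucose sensing moved both ways. MIG2, a glucose repressor gene, had 6.77 and 6.70 with CdS QDs, 4.18 and 4.12 with nystatin, and 5.60 and 5.50 in untreated cells (log2 fold change 2.58, standard error 0.056, adjusted p = 1.33e-07). HXT1, a low-affinity glucose transporter gene induced by high glucose, averaged 5.97 ± 0.044 with CdS QDs, 4.28 ± 0.058 with nystatin and 5.79 ± 0.0061 in untreated cells (SD, n = 2 each), with a log2 fold change of 1.68. HXT3, of the same kind, had 9.52 and 9.54 with CdS QDs, 7.98 and 8.14 with nystatin, and 8.88 and 8.95 in untreated cells (1.47). In all 3 genes the nystatin arrays were the lowest of the 6 and the CdS QDs arrays the highest. HXT5, a transporter gene of slow-growing cells, had 10.05 and 10.07 with CdS QDs against 11.52 and 11.43 with nystatin (−1.41), and HXT10 fell by 1.32. HXT13 lay below background on both nystatin arrays, and it was at least 1.58-fold higher with CdS QDs. The deleted locus LEU2 gave a bound of 1.59 in the same way, so this rise is uncertain. Of 21 genes of hexose transport and glucose sensing 11 rose, 5 fell and 5 did not pass, with a median of 0.21 that was 0.39 without nystatin + CdS QDs replicate 2. After a repeated quantile normalization 8 of them fell.

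Central carbon metabolism changed less. Of 23 genes of glycolysis and fermentation 15 fell, 4 rose and 4 did not pass, with a median of −0.37. PDC6 had 7.37 and 7.41 with CdS QDs, 10.75 and 10.75 with nystatin, and 9.85 and 9.93 in untreated cells (log2 fold change −3.36, standard error 0.047, adjusted p = 4.31e-08). The hexokinase gene HXK2 had 10.03 and 10.17 with CdS QDs against 9.05 and 9.09 with nystatin (1.03). It was the one of the 4 that rose without nystatin replicate 1, and HXK1, PDC5 and PFK1, all under 0.2, were the others. In the TCA cycle 11 of 16 genes fell, 5 did not pass and none rose, with a median of −0.33, none at 2-fold, although 1 rose without nystatin + CdS QDs replicate 2 or after a repeated quantile normalization. SDH2, the iron-sulphur subunit gene of succinate dehydrogenase, had 10.26 and 10.31 with CdS QDs against 11.20 and 11.18 with nystatin (−0.91). Respiratory chain and ATP synthase genes of the nucleus had a median of 0.08, with 16 of 39 that rose, 5 that fell (NDE2, CYT1, STF1, ATP17 and ATP3) and 18 that did not pass, and without nystatin replicate 2 only 3 fell. Their largest changes were in the external NADH dehydrogenase genes, which moved apart. NDE2 had 7.69 and 7.83 with CdS QDs against 10.79 and 10.78 with nystatin (−3.02), and NDE1 had 10.88 and 10.87 against 9.88 and 9.86 (1.00). Genes encoded in mitochondrial DNA were not analysed here. Of 30 genes of protein import into mitochondria 18 rose, 3 fell and 9 did not pass, with a median of 0.27 and TIM12 (0.94) and PAM18 (0.79) at the top.

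**Figure D4:**
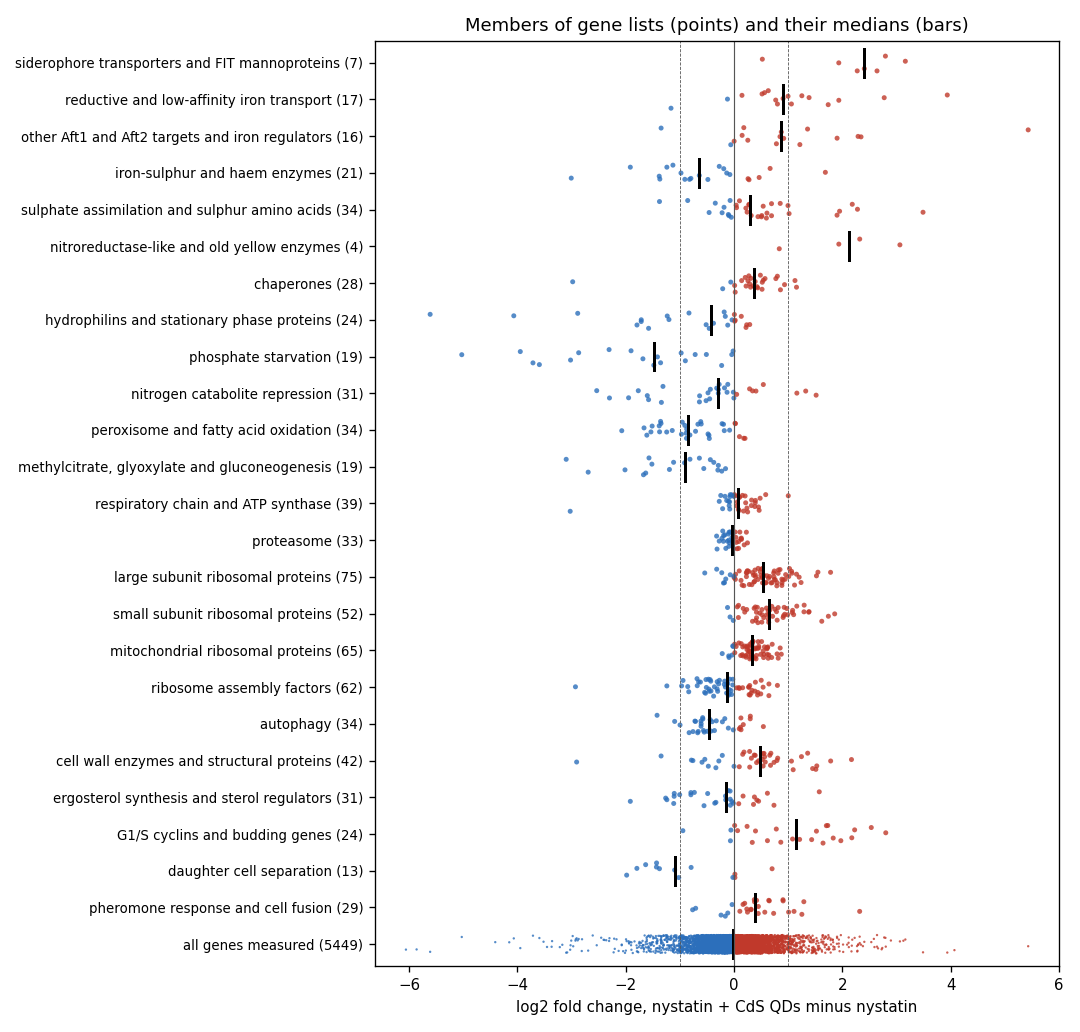
Log2 fold changes (horizontal axis, nystatin + CdS QDs minus nystatin) of the measured members of 24 gene lists, with the number measured in brackets and a bar at each median; the bottom row holds all 5449 genes. The medians run from 2.40 for siderophore transporters to −1.48 for phosphate starvation, and the median of all genes is −0.01.

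Genes of poor nitrogen sources mostly fell. Under nitrogen catabolite repression, yeast keeps these genes off while good nitrogen sources last. Among 31 genes, 18 fell, 8 of them at least 2-fold, 7 rose and 6 did not pass, with a median of −0.29. The ammonium permease gene MEP1 had 7.95 and 8.05 with CdS QDs against 10.53 and 10.54 with nystatin (log2 fold change −2.54, standard error 0.051, adjusted p = 9.23e-08). GAP1, the general amino acid permease gene, had 6.61 and 6.84 with CdS QDs, 9.03 and 9.01 with nystatin, and 9.50 and 9.50 in untreated cells (−2.30, standard error 0.075). DAL80, a repressor gene of this system, fell by 1.95, CPS1, a vacuolar carboxypeptidase gene, by 1.77, and OPT2, an oligopeptide transporter gene, by 1.60. The 3 exporter genes of ammonia and acetate all fell, with ATO3 at 8.22 and 8.54 with CdS QDs against 10.82 and 10.75 with nystatin (−2.41), ATO2 at −1.06 and ADY2 at −0.65. Of 25 amino acid permease genes 8 rose and 11 fell, led by DIP5, for acidic amino acids, which fell by 1.25. Arginine and lysine synthesis had 9 of 16 genes that fell, 2 that rose (ORT1 and ARG8) and 5 that did not pass. ARG1 had 6.84 and 6.83 with CdS QDs, 8.90 and 8.92 with nystatin, and 9.34 and 9.46 in untreated cells (−2.07, standard error 0.051), and ARG4 and LYS9 fell by 1.54 and by 1.42. Over the other amino acids, 25 of 43 synthesis genes fell, 9 rose and 9 did not pass. The aspartate kinase gene HOM3 fell by 1.63, while the serine synthesis genes SER3 and SER2 rose by 1.28 and 1.27. In the Ehrlich pathway, by which amino acids become fusel alcohols, 9 of 18 genes fell, with ARO10 at −1.31, and 4 rose (ATF2, IAH1, ARO9 and PDC5), of which 2 were left without nystatin replicate 2.

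Ribosomal protein genes rose broadly and by moderate amounts. Of 52 genes of the small subunit 46 rose, 1 fell and 5 did not pass. Their median was 0.64, and 11 of them rose at least 2-fold. Of 75 genes of the large subunit, 63 rose, 5 fell and 7 did not pass, with a median of 0.53 and likewise 11 at 2-fold. RPS22A had 9.92 and 9.76 with CdS QDs against 7.92 and 8.03 with nystatin (1.86, standard error 0.072), and its paralog RPS22B had 10.06 and 9.82 against 8.18 and 8.22 (1.74, standard error 0.095). RPL33B had 10.00 and 9.89 against 8.16 and 8.17 (1.78), RPL22B 8.40 and 8.29 against 6.79 and 6.81 (1.55), and RPL14A 10.34 and 10.21 against 8.74 and 8.77 (1.52). Many of these genes have near-identical copies whose RNA the probes may not tell apart, so a change of 1 paralog is uncertain. RPS12 was the small subunit gene that fell, and it did not pass without nystatin replicate 1 or 2, without nystatin + CdS QDs replicate 2 or without either untreated control. The 5 large subunit genes that fell were RPP2B, RPL4A, RPP1A, RPP0 and RPL3, and 3 fell without nystatin replicate 2. Mitochondrial ribosomal protein genes rose in 54 of 65 cases, with 1 that fell (MRPS5), 10 that did not pass, a median of 0.33 and no change of 2-fold, and 2 fell without nystatin + CdS QDs replicate 2. MRPL32 had 8.21 and 8.22 against 7.33 and 7.36 (0.87), and RSM18 had 10.21 and 10.16 against 9.33 and 9.34 (0.85).

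Assembly factors of the ribosome did not follow the ribosomal proteins. Of 62 genes, 28 fell, 17 rose and 17 did not pass, with a median of −0.13, which was −0.25 without nystatin + CdS QDs replicate 1. CRF1, a corepressor gene of ribosomal protein genes, had 4.01 and 4.19 with CdS QDs against 7.10 and 6.96 with nystatin (log2 fold change −2.93, standard error 0.080, adjusted p = 3.58e-07). The list counts CRF1 although it is a regulator rather than an assembly factor. By the study, its part in repressing those genes differs between strains. The nucleolar gene NOP14 had 5.62 and 5.45 against 6.82 and 6.74 (−1.24, standard error 0.064), and RSA1, NOP8 and NOP4 fell by 0.97, by 0.94 and by 0.85. Among 22 genes of RNA polymerases I and III, 8 rose, 9 fell and 5 did not pass, with the small subunit genes RPC10 (1.05) and RPC19 (1.02) at the top. Proteasome genes barely moved, with none at 2-fold among 33, values between −0.32 and 0.25, 6 that rose and 10 that fell. These counts were 2 that rose without nystatin replicate 1, and 3 that rose and 5 that fell without nystatin replicate 2. Of 19 genes of folding in the endoplasmic reticulum 8 rose, 4 fell and 7 did not pass. SIL1 and ERO1 rose by 1.04 and 0.93, the Hsp70 gene KAR2 by 0.64, and MPD1 fell by 0.64.

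The cell wall was another group with a clear rise. Of 42 genes of wall enzymes and structural proteins 30 rose, 9 of them at least 2-fold, 9 fell and 3 did not pass, with a median log2 fold change of 0.49. UTR2, which links chitin to glucan, had 7.16 and 7.28 with CdS QDs, 5.10 and 5.00 with nystatin, and 5.56 and 5.45 in untreated cells (log2 fold change 2.17, standard error 0.064). CWP1, a mannoprotein gene, had 11.29 and 11.48 with CdS QDs, 9.73 and 9.47 with nystatin, and 10.29 and 10.33 in untreated cells (1.78, standard error 0.095). FKS1, a glucan synthase gene, had 10.47 and 10.38 against 8.94 and 9.01 (1.45, standard error 0.052). SCW10 and TOS6 rose by 1.53 and 1.51. NCA3, a member of the SUN family, had 6.82 and 6.71 with CdS QDs, 9.59 and 9.75 with nystatin, and 8.93 and 9.06 in untreated cells (−2.91, standard error 0.074). In the cell wall integrity pathway, which the kinase Slt2 ends, 6 of 19 genes rose, 5 of them at least 2-fold, 8 fell and 5 did not pass. Its median was −0.07 and 31.6% rose, against 36.4% of all genes, so by this call its genes did not rise as a set. At least 2-fold, however, 26.3% were higher, against 4.81% of all genes, and none was lower. Activity of the pathway was not measured. The genes named next are the 6 that rose, and those that fell reached −0.89. PRM5, a target of the pathway, had 10.29 and 10.39 with CdS QDs against 8.03 and 7.89 with nystatin (2.38, standard error 0.063, adjusted p = 3.26e-07). The kinase gene KDX1 had 7.99 and 7.89 against 5.75 and 5.59 (2.27). The wall sensor genes MID2 and WSC2 rose by 1.61 and 1.22, SLT2 by 1.04 and the transcription factor gene RLM1 by 0.64. Of 14 genes of the TIR and DAN mannoproteins and of hypoxia 9 rose, 3 fell and 2 did not pass, with TIR1 at 8.44 and 8.57 with CdS QDs, 6.81 and 6.94 with nystatin, and 6.02 and 6.10 in untreated cells (1.63).

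Ergosterol is the membrane target of nystatin, and several genes of its synthesis that nystatin had raised were lower when CdS QDs were added. ERG25 had 8.94 and 9.13 with CdS QDs, 10.96 and 10.94 with nystatin, and 10.46 and 10.60 in untreated cells. ERG5 had 7.41 and 7.36 with CdS QDs, 8.62 and 8.63 with nystatin, and 7.93 and 7.98 in untreated cells. Their log2 fold changes were −1.91 and −1.24 for CdS QDs plus nystatin against nystatin, and 0.42 and 0.67 for nystatin against untreated cells, in comparisons that share the nystatin arrays. Spread on those arrays moves both values in opposite directions, so they are not independent. Over the 31 sterol genes the median for nystatin against untreated cells was 0.089. HMG1, the rate-limiting reductase gene of the pathway, had 7.27 and 7.25 with CdS QDs, 8.53 and 8.52 with nystatin, and 8.24 and 8.21 in untreated cells (−1.26, standard error 0.041). UPC2, a regulator gene of sterol synthesis, fell by 1.11. ERG4, of the last step, had 9.50 and 9.52 with CdS QDs against 7.95 and 7.93 with nystatin (1.57, standard error 0.043) and was the only one of 31 sterol genes to rise at least 2-fold. Of the 31, 15 fell, 7 at least 2-fold, 8 rose and 8 did not pass. Phospholipid, fatty acid and sphingolipid synthesis had 11 of 31 genes that rose, 12 that fell and 8 that did not pass. OPI3, a phosphatidylcholine synthesis gene, had 9.52 and 9.50 against 11.16 and 11.18 (−1.67), and the desaturase gene OLE1 fell by 1.13.

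Genes of late G1 and of bud emergence rose, while those of daughter cell separation fell. Yeast commits to division in G1, when the factors SBF and MBF switch on cyclins, budding and DNA replication genes, and other enzymes later part the daughter from its mother. In such bulk samples the share of cells in a phase and the RNA in each cell cannot be told apart, as holds for every level on these arrays. Of 24 G1/S cyclin and budding genes 19 rose, 13 of them at least 2-fold, 1 fell and 4 did not pass, with a median log2 fold change of 1.15. GIC2 had 10.36 and 10.47 with CdS QDs against 7.57 and 7.66 with nystatin (log2 fold change 2.80, standard error 0.055, adjusted p = 9.23e-08). SVS1, of the cell surface, had 10.89 and 11.03 against 8.45 and 8.40 (2.53, standard error 0.057), and MSB2, whose product senses osmotic stress at the membrane, had 9.41 and 9.34 against 7.18 and 7.12 (2.23). The cyclin genes PCL1 and PCL2 had 7.59 and 7.69 against 5.42 and 5.51 (2.17), and 6.72 and 6.92 against 4.96 and 4.74 (1.97). The groups did not overlap in any of these genes. WHI5, the repressor gene of G1/S entry, was the member that fell (−0.94). Of 13 daughter separation genes 9 fell, 8 at least 2-fold, 1 rose and 3 did not pass, with a median of −1.10. DSE1 had 6.82 and 6.58 with CdS QDs against 8.66 and 8.71 with nystatin (−1.98, standard error 0.079), DSE2 had 7.01 and 7.11 against 8.83 and 8.88 (−1.79), and SCW11 had 5.60 and 5.95 against 7.36 and 7.45 (−1.63). The kinase partner gene MOB2 rose by 0.70.

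Replication, mitosis and histone genes moved less. Of 26 DNA replication genes, 14 rose, 6 fell (3 without nystatin replicate 2) and 6 did not pass, with a median of 0.19. The cohesin gene MCD1 and the origin licensing gene CDC6 both had a log2 fold change of 1.45, and the ribonucleotide reductase gene RNR1 had 1.14. Of 26 genes of mitosis and mitotic exit 14 rose, 3 fell and 9 did not pass. CLB1, a mitotic cyclin gene, fell by 1.13 and the exit kinase gene DBF2 rose by 1.03. Of 10 histone genes 9 rose, with HHT1 at 10.97 and 10.86 with CdS QDs against 9.85 and 9.96 with nystatin (1.01), and the variant gene HTZ1 fell by 0.41. HTA2 has 2 probe sets of its own, with 0.44 for the brighter and 1.03 for the other. DNA damage genes showed no common rise, with 9 of 23 that rose, 11 that fell and 3 that did not pass. The damage-inducible subunit genes of ribonucleotide reductase fell, RNR3 with 6.35 and 6.49 with CdS QDs against 8.03 and 7.95 with nystatin (log2 fold change −1.57, standard error 0.063) and RNR2 with 9.96 and 9.98 against 11.53 and 11.47 (−1.53, standard error 0.045).

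**Figure D5:**
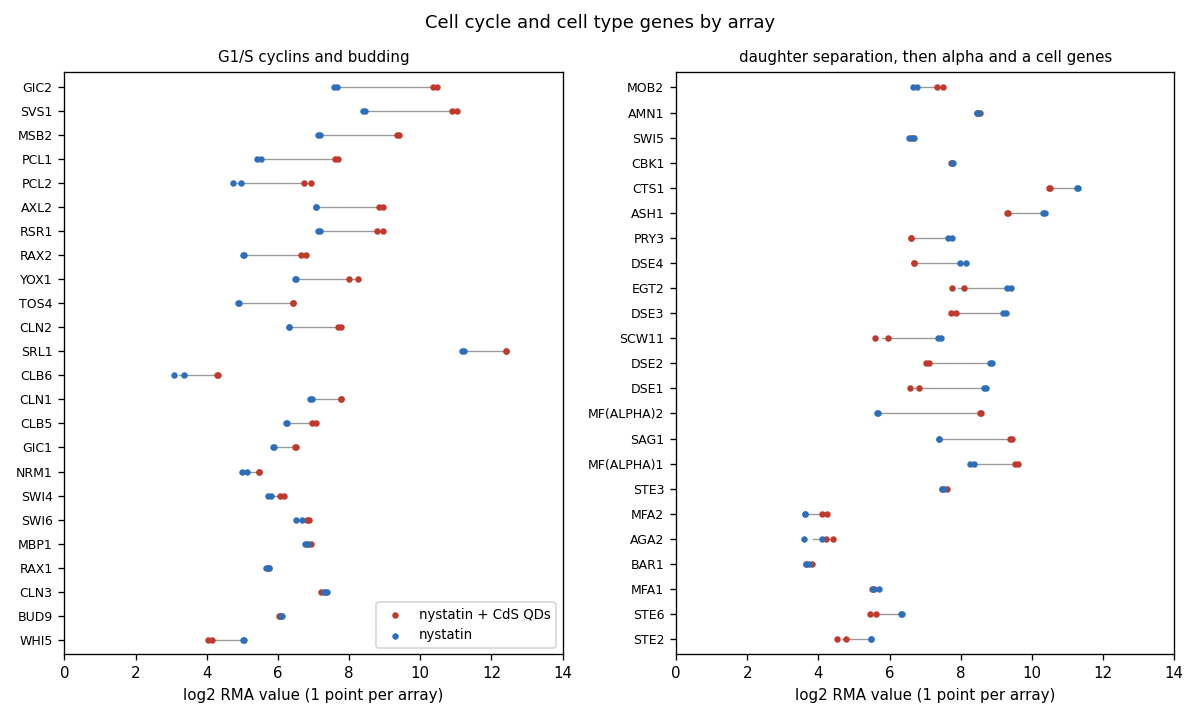
Log2 RMA values (horizontal axis, 1 point per array; a grey line joins the group means) with nystatin + CdS QDs and with nystatin, of G1/S cyclin and budding genes at left, and of daughter separation, alpha cell and a cell genes at right. GIC2 is at 10.36 and 10.47 with CdS QDs against 7.57 and 7.66 with nystatin, DSE1 at 6.82 and 6.58 against 8.66 and 8.71, and STE3 shows hardly any shift.

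Of 4 alpha cell genes 3 rose with CdS QDs and 1 did not pass. Levels of these and of a cell genes come from different probes and cannot be set against each other, so each list is compared between conditions only. The log2 of the summed linear level of the 4 alpha cell markers was 10.97 and 10.96 with CdS QDs, 9.46 and 9.52 with nystatin, and 9.01 and 9.05 in untreated cells. For the 6 a cell markers it was 7.42 and 7.37 with CdS QDs, 7.78 and 7.70 with nystatin, and 7.85 and 7.85 in untreated cells, so these markers, too, gave signal. MF(ALPHA)2 had 8.58 and 8.55 with CdS QDs, 5.65 and 5.69 with nystatin, and 5.25 and 5.22 in untreated cells (log2 fold change 2.90, standard error 0.043, adjusted p = 4.31e-08). SAG1, the alpha-agglutinin gene, had 9.44 and 9.37 with CdS QDs against 7.40 and 7.39 with nystatin (2.01, standard error 0.052), and MF(ALPHA)1 had 9.53 and 9.61 against 8.27 and 8.36 (1.25, standard error 0.066). STE3, the a-factor receptor gene, did not pass (0.03). Among the a cell genes STE2 and STE6 fell by 0.81 each, MFA2 rose by 0.54, MFA1 and BAR1 did not pass (MFA1 passed without nystatin replicate 2, adjusted p = 0.0396), and AGA2 had 0.47 with an adjusted p = 0.0388. The call of AGA2 was lost when any array other than nystatin replicate 1 was left out, with adjusted p = 0.0513 to 0.201, and no a cell gene other than MFA2 then rose. Of 29 genes of the pheromone response and cell fusion 21 rose, 5 at least 2-fold, 4 fell and 4 did not pass, with a median of 0.38. FUS1, of the fusion of mating cells, had 7.84 and 7.77 with CdS QDs against 5.42 and 5.56 with nystatin (2.32, standard error 0.089), and AGA1, CIK1, SST2 and FIG1 rose by 1.29, 1.25, 1.11 and 1.01. Of the 4 that fell, PRM8, PRM7, STE11 and STE7, 2 were left without nystatin replicate 1. The deleted loci LYS2 and URA3 lay below background on all 4 arrays. LEU2 lay below background on both nystatin arrays and had 2.29 and 1.98 with CdS QDs, at least 1.59-fold higher. As this locus is deleted, its signal is not read as expression of the gene, and other bounds of this size are uncertain. HIS3, of which the strain lacks only a part, averaged 7.92 ± 0.12 with CdS QDs and 8.42 ± 0.015 with nystatin (SD, n = 2 each).

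By the adjusted p, genes of meiosis and sporulation rose and fell in shares close to those of all genes, and their median was 0.05. Of 40 genes 16 rose, 14 fell and 10 did not pass, with 2 increases and 7 decreases of at least 2-fold. These decreases were 17.5% of the list, against 4.68% of all genes, and the increases were 5%, against 4.81%. The master regulator gene IME1 had 5.92 and 6.08 with CdS QDs against 8.23 and 8.11 with nystatin (log2 fold change −2.17, standard error 0.071), and NDT80, the regulator gene of middle sporulation, had 4.86 and 4.85 against 6.56 and 6.62 (−1.74, standard error 0.057). RME1, which represses IME1 in haploid cells, fell as well (−1.45), and SPO21, a spore membrane gene, fell by 1.44. SPO16, a gene of meiotic crossovers, rose by 1.45. Over the 5 markers of diploid or sporulating cells the log2 of the summed linear level was 8.45 and 8.50 with CdS QDs, against 9.25 and 9.17 with nystatin and 9.22 and 9.18 in untreated cells. IME1 and NDT80 are 2 of these 5 markers, so this sum is no separate evidence of a fall. It is weighted to bright probe sets and does not show how IME2, SPS1 and DIT1 moved. Of 13 genes of filamentous growth and flocculation 7 rose, 3 fell and 3 did not pass. PGU1 had 7.31 and 7.50 with CdS QDs against 4.75 and 4.61 with nystatin (2.72, standard error 0.11), and the regulator genes NRG2 and SOK2 fell by 1.61 and by 1.21.

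The remaining lists held mixed or small changes. Of 18 genes of thiamine and vitamin B6, 10 fell, 5 did not pass and 3 rose (THI6, THI21 and PDX3). The thiazole synthase gene THI4 averaged 7.30 ± 0.046 with CdS QDs, 9.04 ± 0.057 with nystatin and 8.15 ± 0.030 in untreated cells (SD, n = 2 each). Of 17 purine synthesis genes 11 fell, 3 rose (BAS1, ADE16 and PRS5) and 3 did not pass, with ADE17 at −1.65. Among 10 genes of GTP synthesis and purine salvage, 4 rose and 5 fell, and IMD2, the inosine monophosphate dehydrogenase gene, had 4.16 and 4.15 with CdS QDs, 5.61 and 5.78 with nystatin, and 4.49 and 4.59 in untreated cells (−1.54). Pyrimidine synthesis had 2 of 12 that rose (URA7 and URA10), 3 that fell (URA8, URA1 and FUI1; 5 without nystatin + CdS QDs replicate 1) and 7 that did not pass. Of 20 genes of the proton pump and of cation transport, 11 fell, 6 rose and 3 did not pass, led by PMA2, with the major pump gene PMA1 at 9.22 and 9.17 with CdS QDs against 9.82 and 9.85 with nystatin (−0.65). The cation transport gene KCH1 rose by 1.54. Of 16 genes of the osmotic response and glycerol 9 fell, 4 rose and 3 did not pass, with the glycerol-1-phosphatase gene GPP1 at −1.70 and GUT2, the mitochondrial glycerol-3-phosphate dehydrogenase gene, at −1.34. DOG2, a sugar phosphatase gene, has 2 probe sets of its own, which rose by 0.87 and 1.22.

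Of 60 measured genes that the study's text names, most of them for these arrays and a few as mutants, 31 rose, 28 fell and 1 did not pass, with 24 and 26 at least 2-fold. The study chose most of them on these same arrays, so the direction of these counts is no independent evidence. The one that did not pass was YOL014W (−0.08). DMC1, a recombinase gene of meiosis, had 5.71 and 5.84 with CdS QDs, 6.95 and 6.93 with nystatin, and 8.10 and 7.97 in untreated cells, which is −1.16 against nystatin and −1.10 for nystatin against untreated cells, both from the same nystatin arrays.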

How the data were processed

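RNA of BY4742 cells was hybridised to 6 GeneChip Yeast Genome 2.0 arrays, 2 per condition. The deposited values are log2 RMA values, which the authors made with Affymetrix Expression Console per the submitters' processing notes; RMA corrects background, quantile-normalizes arrays and summarises probes, so levels of different probe sets are not comparable. No scanner files were used here. Groups came from the sample titles. A linear model with 3 group means was fitted to the 5498 S. cerevisiae probe sets of all 6 arrays in limma 3.58.1 (R 4.3.3; residual degrees of freedom 3), and the contrast nystatin + CdS QDs minus nystatin was tested with moderated errors and Benjamini-Hochberg adjustment over all 5498. The script was tested on simulated data. Tables and figures were made in Python 3.11.15 with numpy 2.4.6, pandas 2.3.3 and matplotlib 3.10.9. A gene is read from the brightest of its own probe sets. A fold is called "at least" where both arrays of a group were below background. The number of arrays, 2 per group, limits the precision.

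Named genes are the 15 largest changes each way that passed the test, the 5 largest changes in each of 66 gene lists (every member of lists of 12 or fewer), genes the study's text names, and genes of the strain and mating type check. Genes outside this rule were chosen after their values were seen, mostly to spell out small counts or as partners of a named gene. The comparison, the gene lists and the tests were chosen with earlier results of these data known. The alternatives tried were a fit of these 4 arrays alone, a block for the replicate number, an intensity trend, no moderation, repeated quantile normalization, median centring, dim probe sets left out, all probe sets, the mean of a gene's own probe sets, and each array left out in turn. Nothing stated that arrays of the same replicate number share a culture, so the main fit held no block.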

Additional observations from a re-analysis of the deposited data

Results flagged for a closer look

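Probe sets outside the comparisons above were counted as well. Of the 3470 probe sets with no gene listed, 335 were above background on both nystatin + CdS QDs arrays and 312 on both nystatin arrays. A fit of all probe sets was used here, with a change of 2-fold or more and an unadjusted p under 0.01. By it 9 of the 335 were higher and 20 of the 312 lower with nystatin + CdS QDs than with nystatin. Over the 5498 S. cerevisiae probe sets 4.87% were higher and 4.66% lower at these thresholds in the main fit, and the counts are to be read against these shares. Since these probe sets have no gene listed in the tables used here, they are given as counts only. No gene group or array was flagged for a sample far from the others, because groups of 2 arrays were not tested for that.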

How the results depend on the processing

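Under each alternative the 4 counts of called probe sets stayed within 1.5 times their values. With each array left out in turn, 1771 to 1972 probe sets rose, 1839 to 2047 fell, 251 to 293 were at least 2-fold higher and 254 to 280 at least 2-fold lower. With the replicate number as a block the counts were 1997, 2091, 268 and 256, and the deviations of same-numbered arrays correlated at −0.05 between nystatin + CdS QDs and nystatin, so the numbers gave no sign of pairing. Among the genes named, the block ended the calls of AGA2 (adjusted p = 0.0757), PHO2 (0.0618), PFK1 (0.0559), RPS12 (0.0544) and PDC5 (0.0527) and of no other. Without moderation 1747 rose and 1859 fell, and with all probe sets in the adjustment 1734 and 1806. Directions turned only in genes that had not passed the test. With each array left out in turn, log2 fold changes ran from −0.037 to 0.0999 for STE3, −0.056 to 0.125 for BAR1, −0.026 to 0.016 for LYS2, −0.106 to 0.0716 for GDE1 and −0.083 to 0.086 for ISU1. After repeated quantile normalization BAR1 was at −0.019 and FRE7 at −0.043, and after median centring ISU1 was at −0.0060. The calls of AGA2, ARO9, ATG8, ATG27, ATP3, ATP17, BPL1, CUP1-1, FUI1, GLG2, GRX3, GSH2, HXK1, LPX1, PDC5, PDX3, PFK1, PHO2, PHO85, PHO92, PRS5, RPL3, RPP0, RPS12, STE7, STE11, TPO2, URA1, URA3 and VHT1 were lost under some alternative, those of FRE8, GSH1, LYS2, MFA1 and PHO3 were gained under some, and the cause was not tested. With 2 arrays a group, from aliquots, small changes rest on a narrow estimate of error.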
